A study of Homo sapiens with 6 samples.

Results

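The 10 genes TGFB1, TGFB2, TGFB3, INHBA, INHBB, TGFBR1, TGFBR2, SMAD2, SMAD3 and SMAD7 encode ligands, receptors and SMAD proteins of TGF-beta and activin signalling, and the accessible chromatin around them was described in a human beta cell line. A region counted as a promoter region of a gene if any of its bases lay within 2 kb of the start of a protein-coding transcript of that gene in GENCODE 44. A region outside all such windows was a distal region of the gene with the nearest protein-coding start, if that start lay within 100 kb of its middle. By this rule, which uses positions and no measured value, 92 of the 108542 regions belonged to the 10 genes. Of these, 18 were promoter regions, of 20094 in all, and 74 were distal, of 55158 in all.

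Accessibility was measured by ATAC-seq, in which the transposase Tn5 inserts sequencing adapters into open DNA, in 3 non-senescent and 3 senescent libraries of EndoC-βH3 cells, each made from 100000 cells. EndoC-βH3 is a single line derived from human fetal pancreas and immortalised with SV40 large T antigen and telomerase, which Cre recombinase can excise. Both groups were labelled as wild type. The senescent group had been given 4-hydroxytamoxifen for 3 weeks, which switches on the Cre that the cells carry, while the non-senescent group was labelled as control. In the deposited table each region has 1 mean over all 6 libraries, so the values below are levels of the pooled groups, without a spread, and no difference between senescent and non-senescent cells was tested. For the same reason, neighbours in any order of levels cannot be said to differ. The depth of single libraries cannot be read from this mean.

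The cells were checked against marker genes through their strongest promoter region, which here and below is that with the highest mean signal before division by width. All 12 beta cell genes looked at had a promoter region, with a median of 1466 mean signal per kb, against 686 over the 15493 protein-coding genes with one. Of the 12, 9 were above that median of all genes, while IAPP with 435, SLC30A8 with 541 and ABCC8 with 589 per kb were below it. Promoter levels were lower in the median for the 6 genes of other islet cells, all with a promoter region (median 212 per kb), and for the 2 of 4 fibroblast genes that had one (median 69.6 per kb). Of these genes only IRX2, of other islet cells, was above the median of all genes, with 771 per kb. Of the remaining markers, 4 of 5 acinar, 2 of 3 duct, 2 of 4 immune and 1 of 3 endothelial genes had a promoter region. The acinar gene CPA1, which encodes a carboxypeptidase, stood out among them at 1298 mean signal per kb, and the duct keratin gene KRT19 had 737 per kb. Among the immune genes, the macrophage gene CD68 had 921 mean signal per kb, while PTPRC and CD3E, which define leukocytes and T cells, had no promoter region, although PTPRC had 5 distal regions of up to 795 per kb. A region can fall in the promoter windows of several genes, and such sharing is not given for the markers, CD68 included.

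TGF-beta ligands bind the receptor kinase TGFBR2, which activates TGFBR1, and TGFBR1 phosphorylates SMAD2 and SMAD3. Activins are dimers of the subunits encoded by INHBA and INHBB, act through their own receptors and converge on the same SMAD2 and SMAD3, which enter the nucleus with SMAD4 and bind DNA. SMAD7 is induced by the pathway and blocks the type I receptors, and in islets the pathway is known for its part in beta cell identity and insulin secretion.

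The sequences below are those of the hg38 reference. The first set shows 150 bases upstream of the main start, the start of the transcript that GENCODE marks as canonical. It covers the ligand genes except TGFB3, 4 genes that differed there in base composition. The stretches of TGFB1 and INHBA lay outside the accessible regions of these genes, which are described below. That of INHBB reached into a region only with its last bases, after all of its marked motifs. Each is written 5′ to 3′ on the strand of the gene, and capitals mark motifs found on either strand. These are the GC box, with the letters GGGCGG, the CCAAT box, named for its letters, and the CAGA box of SMAD3 and SMAD4, with the letters CAGACA.

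TGFB1, chr19:41353923-41354072, minus strand: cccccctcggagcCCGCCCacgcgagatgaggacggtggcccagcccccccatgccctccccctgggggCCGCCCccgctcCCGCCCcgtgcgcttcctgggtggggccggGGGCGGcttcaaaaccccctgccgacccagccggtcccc

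TGFB2, chr1:218345186-218345335, plus strand: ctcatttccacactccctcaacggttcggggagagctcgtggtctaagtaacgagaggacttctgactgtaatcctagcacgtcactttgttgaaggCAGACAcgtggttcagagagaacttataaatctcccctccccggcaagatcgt

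INHBA, chr7:41703091-41703240, minus strand: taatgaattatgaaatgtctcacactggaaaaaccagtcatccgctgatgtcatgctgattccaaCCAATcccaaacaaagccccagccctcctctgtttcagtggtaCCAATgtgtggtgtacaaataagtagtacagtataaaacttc

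INHBB, chr2:120345986-120346135, plus strand: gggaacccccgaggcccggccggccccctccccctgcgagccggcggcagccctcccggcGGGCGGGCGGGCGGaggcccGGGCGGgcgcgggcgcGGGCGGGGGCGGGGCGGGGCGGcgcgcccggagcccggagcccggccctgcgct

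These stretches were 80% GC for TGFB1 and 91.3% for INHBB, with 4 and 8 GC boxes, against 50.7% for TGFB2 and 41.3% for INHBA, with none. TGFB2 instead had 1 CAGA box, 53 bases before its main start, and INHBA had 2 CCAAT boxes. The stretch of TGFB3, which is not shown, was 51.3% GC, close to that of TGFB2, and held none of these motifs. The same stretch was 86% GC at SMAD2, which had the highest promoter level of the 10 genes described below, and TGFB1 and INHBB had the lowest. At SMAD2 this stretch lay in the gap between its promoter regions. Whether base composition goes with promoter level was not tested.

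The second set shows SMAD motifs at SMAD7, with the motif in capitals and 30 bases on each side, on the minus strand, which is that of the gene. The first line is from the promoter region and holds the SMAD palindrome GTCTAGAC, which reads the same on both strands and was chosen in binding studies of SMAD3 and SMAD4. The others hold the CAGA boxes of 3 strong regions in an intron and are named by their distance from the main start. In 1 of them the box stands on the other strand.

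SMAD7 promoter, chr18:48952188-48952255: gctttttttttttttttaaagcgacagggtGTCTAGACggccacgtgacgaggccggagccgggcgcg

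SMAD7 intron, 24.3 kb, chr18:48926627-48926692: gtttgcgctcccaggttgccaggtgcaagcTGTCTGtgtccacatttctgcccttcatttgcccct

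SMAD7 intron, 22.1 kb, chr18:48928875-48928940: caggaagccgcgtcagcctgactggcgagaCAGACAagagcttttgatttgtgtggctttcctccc

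SMAD7 intron, 21.97 kb, chr18:48928969-48929034: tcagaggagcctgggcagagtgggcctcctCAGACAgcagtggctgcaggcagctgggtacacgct

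SMAD7 intron, 20.7 kb, chr18:48930220-48930285: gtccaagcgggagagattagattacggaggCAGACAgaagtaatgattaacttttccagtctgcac

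The last sequence is the middle 300 bases of the distal region with the highest level per kb at TGFBR1, which was also the highest of the 74, on the plus strand, with CAGA and CCAAT boxes in capitals. Capitals also mark homeodomain sites, with the letters TAATTA, and E-boxes, with the letters CAGATG.

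TGFBR1 downstream, chr9:99170199-99170498: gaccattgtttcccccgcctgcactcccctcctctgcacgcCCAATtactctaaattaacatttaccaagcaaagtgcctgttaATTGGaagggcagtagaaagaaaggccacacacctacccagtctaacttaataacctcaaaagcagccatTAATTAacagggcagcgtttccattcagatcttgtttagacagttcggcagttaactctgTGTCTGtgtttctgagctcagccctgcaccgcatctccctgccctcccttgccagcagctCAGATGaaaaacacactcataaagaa

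All 10 genes had at least 1 promoter region, as did 78.7% of the 19676 protein-coding genes, and their strongest promoter regions ranged from 114 to 1762 mean signal per kb of width. SMAD2 and TGFBR1 lay at the top, TGFB1 and INHBB at the bottom. The median of the 10 genes was 479 mean signal per kb, below the 686 of all genes with a promoter region, and 4 of the 10 were above that median. This order turned when the start sites of all transcripts were used, with a median of 768 mean signal per kb for the 10 genes against 695 for all. A second promoter region or more was present in 5 of the 10 genes. It was present in 4706 (23.9%) of all 19676 genes, of which 15493 had any promoter region. The number of start sites per gene, which this count can follow, had a median of 3.5 against 3 in all genes. Its upper quartile was 7.75 against 5.

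**Figure D1:**
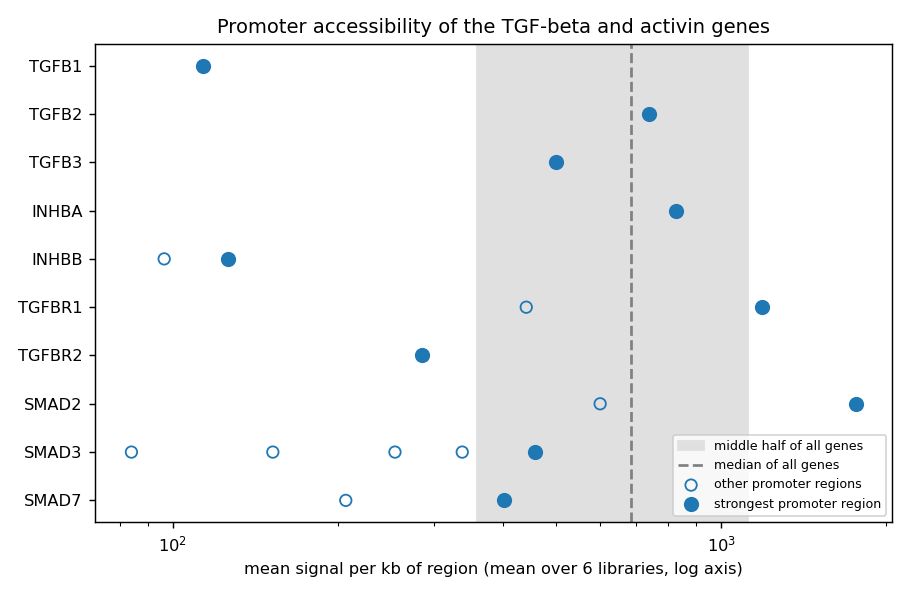
Mean signal per kb of each promoter region of the 10 genes (horizontal log axis, mean over 6 libraries), with a filled point for the strongest region of a gene and open points for its others. The grey band runs from the lower to the upper quartile of the strongest promoter regions of all genes and the dashed line is their median of 686. SMAD2 and TGFBR1 lie right of the band and TGFB1, INHBB and TGFBR2 left of it.

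Among the ligands, the TGF-beta genes differed widely. TGFB1, the most widely expressed TGF-beta, had a single region, chr19:41352548-41353218, with 114 mean signal per kb, and only 6.36% of genes with a promoter region were lower. It lay over a coding exon of the gene and also fell in the promoter window of TMEM91. The main start of TGFB1 lay 704 bases outside it. TGFB2 and TGFB3 are closely related ligands with roles in development. The region of TGFB2, chr1:218344943-218346311, covered its main start and had 738 mean signal per kb, and that of TGFB3, chr14:75981511-75982899, covered its own and had 501 per kb.

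The activin subunit genes stood apart from each other as well. INHBA encodes the beta A subunit, and its promoter region, chr7:41704975-41706028, had 828 mean signal per kb. It was not at the main start, which lay 1885 bases from the nearest region, but at the start of another coding transcript, 332 bases from the middle of the region and 2.41 kb upstream of the main start. INHBB encodes the beta B subunit. Its region over the main start, chr2:120346125-120347211, had 126 mean signal per kb. A second one upstream, chr2:120345086-120345539, had 96.5 per kb, so both were in the lower part of all promoter regions. Their middle 300 bp were 75% and 77% GC.

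Of the receptor genes, TGFBR1 had the higher promoter level. This type I receptor kinase had 1189 mean signal per kb at chr9:99104496-99105206, which covered the main start, and 441 per kb in a second region in an intron, chr9:99105478-99106027. TGFBR2, the type II receptor that binds the ligand, had 1 region over its main start, chr3:30606084-30607450, with 285 mean signal per kb. The promoters of TGFBR1 and TGFBR2 were higher than those of 77.5% and 19.3% of genes with a promoter region.

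SMAD2 had the strongest promoter of the 10 genes, higher than 91.5% of genes. Its region chr18:47930862-47931983 had 1762 mean signal per kb and a neighbour, chr18:47930063-47930570, had 602 per kb. The main start lay in the gap between them, 89 bases from the nearer edge. SMAD3, which unlike the main form of SMAD2 binds DNA itself, had 5 promoter regions along its many start sites. The one over the main start, chr15:67065032-67065938, had 457 mean signal per kb and the 4 others had between 84.1 and 337 per kb. These others were chr15:67062117-67063011 upstream and chr15:67067565-67067759, chr15:67127078-67127468 and chr15:67168290-67168620 in introns.

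SMAD7, the inhibitor, had 402 mean signal per kb in the widest promoter region of the 10 genes, the 1784 bp of chr18:48951450-48953233, and 207 per kb at chr18:48949764-48950494. Its main start lay between these regions as well, 471 bases from the nearer. In all, the main start was inside a region for 6 of the 10 genes. The corresponding share was 66.9% of 19688 main starts, or 88.0% of those with a region within 2 kb.

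The distal regions were numerous at the SMAD and receptor genes. SMAD2 had 16, SMAD3 15, TGFBR1 10, TGFBR2 9 and SMAD7 8, whereas TGFB2 had 6, INHBA and INHBB 4 each, TGFB3 2 and TGFB1 none. The median over the 10 genes was 7, against 1 over all protein-coding genes. Part of this count follows from the length of DNA that a gene is nearest to, so the number was also divided by that territory, which is the DNA outside promoter windows and within 100 kb for which the gene has the nearest start. The territory of TGFB1 was 0 kb, as all DNA near it was in a promoter window or nearer to another start, so it could have no distal region. For the other 9 genes the density ran from 2.04 per 100 kb at INHBA to 7.22 at SMAD2, with a median of 4.73 against 2.83 over all genes with a territory of at least 10 kb. TGFBR1 with 7.08 and SMAD3 with 7.06 were close to SMAD2, and TGFB3 with 2.17, INHBA and INHBB with 2.81 were below the median of all genes.

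**Figure D2:**
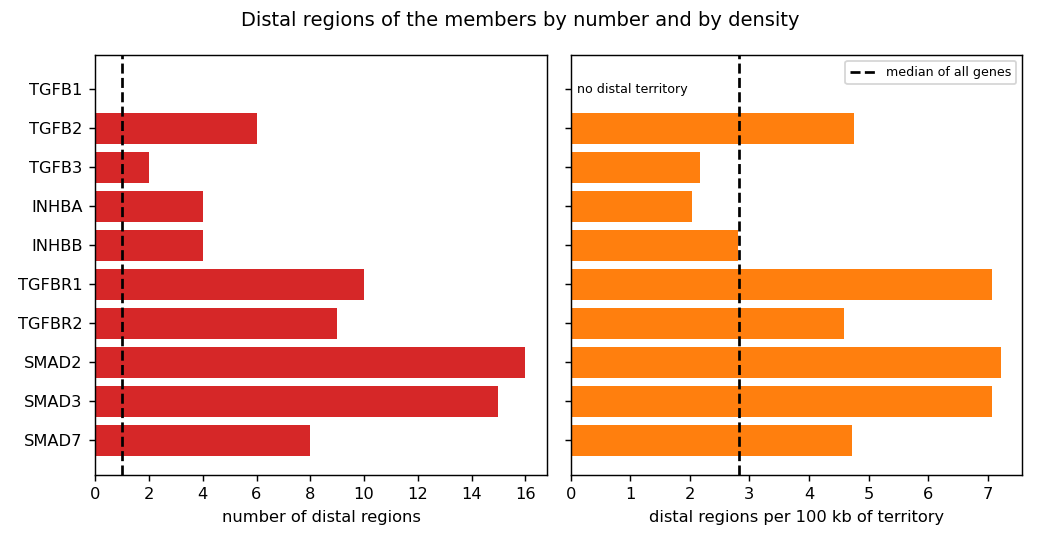
Number of distal regions (left) and distal regions per 100 kb of territory (right) for each gene, with the median of all genes as a dashed line. SMAD2, SMAD3 and TGFBR1 have the longest bars in both panels, and TGFB1 has no distal territory.

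By place, 29 of the 74 distal regions were in introns of the gene itself and 5 in introns of other protein-coding genes, such as COL15A1 upstream of TGFBR1. A further 27 were intergenic, and 8 lay in ENSG00000259347, a non-coding gene upstream of SMAD3. Coding exons held 2 and untranslated exons 3. The middle of 16 regions (21.6%) was within 10 kb of the nearest start, as was that of 23.7% of all distal regions. Within 50 kb were 49 (66.2%), against 76.3% of all distal regions.

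**Figure D3:**
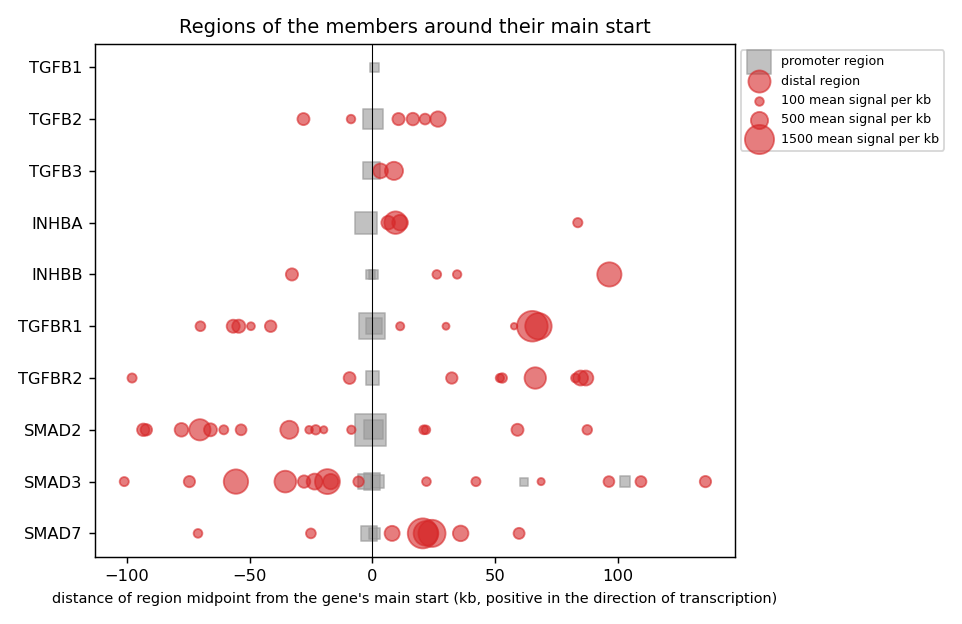
Position of the 92 regions as the distance of their middle from the main start of the gene (horizontal axis, kb, positive in the direction of transcription), with squares for promoter and circles for distal regions and the size of a symbol growing with mean signal per kb. The largest circles include a pair about 65 kb downstream of the TGFBR1 start and a cluster 20 to 25 kb inside SMAD7, and the large circles of SMAD3 are upstream.

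Their level was close to that of distal regions in general. The median was 205 mean signal per kb, against 187 over all distal regions, and 23 of the 74 (31.1%) were above the upper quartile of all distal regions, where 25% of all distal regions are by definition. The range was from 41.0 to 1660 mean signal per kb.

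Both ends of this range were at TGFBR1. Its strongest distal region, chr9:99169967-99170730, 65.2 kb downstream of the main start and beyond the end of the gene, had 1660 mean signal per kb, more than its promoter. The region next to it, chr9:99172641-99173007, had 1230 per kb. All 8 other distal regions of TGFBR1 were between 41.0 and 280 per kb. TGFBR2 had its strongest distal region in an intron, chr3:30672578-30673464, with 797 mean signal per kb, 2.79 times its promoter level per kb.

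At SMAD7, 3 regions within 5 kb of each other in an intron had 1593 (chr18:48930095-48930685), 1297 (chr18:48926453-48926814) and 1071 mean signal per kb (chr18:48928894-48929255), and the highest was 3.97 times the promoter level per kb, or 1.31 times when the signal was not divided by width. At SMAD3 the strong distal regions lay upstream of the gene. They included chr15:67009621-67010475 with 1040 and chr15:67029791-67030554 with 819 mean signal per kb, both in ENSG00000259347, while the 5 distal regions within SMAD3 itself were between 58.4 and 183 per kb. SMAD2 was the opposite case, with the strongest promoter and a distal maximum of 781 mean signal per kb at chr18:48000803-48001011, 70.2 kb upstream, which was 0.443 times the promoter level.

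The ligand genes had fewer distal regions but some strong ones. INHBB, with its weak promoter, had a region of 1026 mean signal per kb at chr2:120442028-120443473, 96.6 kb downstream and so near the limit of the rule. This was 8.13 times the promoter level, and the other 3 distal regions of INHBB were between 95.2 and 235 per kb. INHBA had 880 mean signal per kb in an intron, chr7:41693288-41693906, and TGFB3 had 561 per kb at chr14:75972502-75973799, which lies in introns of TGFB3 and of IFT43. In TGFB2 the highest was 397 mean signal per kb at chr1:218371669-218372570, in an intron, 0.538 times the promoter.

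Altogether the strongest distal region exceeded the strongest promoter region per kb in 7 of the 9 genes with both kinds. TGFB2 and SMAD2 were the exceptions. Without division by width it did so in 6 of 9, with INHBA at 0.624 times its promoter and TGFBR2 at 1.81 times. Per kb, over all 11013 genes with both kinds this was so in 38.8%, but the 10 genes had more distal regions in the median than all genes, and a maximum over more regions is taken from more values. The promoter region was chosen by whole signal and the distal region by level per kb. In the 10 genes the chosen promoter region was also the highest per kb, which need not hold for all genes. The comparison was not repeated with the start sites of all transcripts, under which the 10 genes had 27 promoter and 35 distal regions. No test was made.

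The motifs were counted on both strands in the middle 300 bp of each region, without an enrichment test, and a match does not show that a factor was bound. The CAGA box was present in 22 of 74 distal regions (29.7%, 95% Wilson interval 20.5 to 40.9%), from 8 of the genes, and in 23.4% of all distal regions. AP-1 sites (TGANTCA), bound by JUN and FOS factors that work with SMAD3, were present in 13 (17.6%, 10.6 to 27.8%), against 11.3% of all. For both motifs the share of all distal regions lay inside the interval, which covers counting error only, since regions of 1 gene share a locus. CCAAT boxes were the most frequent, in 29 of 74 (39.2%) against 29.5% of all.

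For motifs of beta cell factors, too, the share of all distal regions lay inside the Wilson interval. Homeodomain sites, of the kind bound by PDX1 and NKX6-1, were in 8 of 74 (10.8% against 9.57%) and RFX sites (GTTGCC) in 13 (17.6% against 13.8%). MAF sites (TGCTGAC) were in 9 (12.2%, interval 6.53 to 21.5%, against 7.67%). E-boxes, the form bound by NEUROD1, were in 26 (35.1% against 32.6%). Forkhead sites (TGTTTAC) were in 4 (5.41% against 9.26%), TEAD sites (GGAATG) in 9 (12.2% against 14.1%), GC boxes in 4 (5.41% against 11.1%), the cyclic AMP element TGACGTCA in 1 (1.35% against 0.319%) and the CTCF motif in 1 (1.35% against 3.77%).

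Sites were also counted gene by gene, with no test between genes. All 3 strong SMAD7 intron regions printed above held a CAGA box in these 300 bp, as did both strong TGFBR1 regions. Over the whole width of the 74 distal regions there were 41 CAGA boxes, or 1.06 per kb. SMAD7 had 8 of them in 4441 bp, or 1.80 per kb, but 3 of these, some overlapping, were in 1 weak region of 215 bp, and without it the density was 1.18 per kb. TGFB2 had 1.57 and TGFBR1 1.496 CAGA boxes per kb, and the lowest densities were those of INHBB with 0.326, a single box, and SMAD2 with 0.633 per kb.

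In the promoter regions, the SMAD palindrome GTCTAGAC was found in 1 of 18, the SMAD7 region shown above, 1253 bases upstream of the main start. Only 19 of all 20094 promoter regions (0.0946%) held it. None of the 74 distal regions did, which with the Wilson interval allows a share of up to 4.93%, and 0.219% of all distal regions had it. CAGA boxes were in 5 of 18 promoter regions (27.8%, Wilson interval 12.5 to 50.9%), namely of TGFB2, INHBB, TGFBR1 and SMAD3, against 15.0% of all promoter regions. GC boxes were in 8 of 18 (44.4% against 55.5%) and CCAAT boxes in 2 (11.1% against 24.2%). E-boxes were in 3 (16.7% against 14.2%), and MAF, RFX and TEAD sites in 1 each, while AP-1, cyclic AMP, forkhead, homeodomain and CTCF motifs were in 0 of 18, which allows up to 17.6%. Outside the middle 300 bp, the promoter regions of TGFB2 and TGFBR2 each held an AP-1 site.

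**Figure D4:**
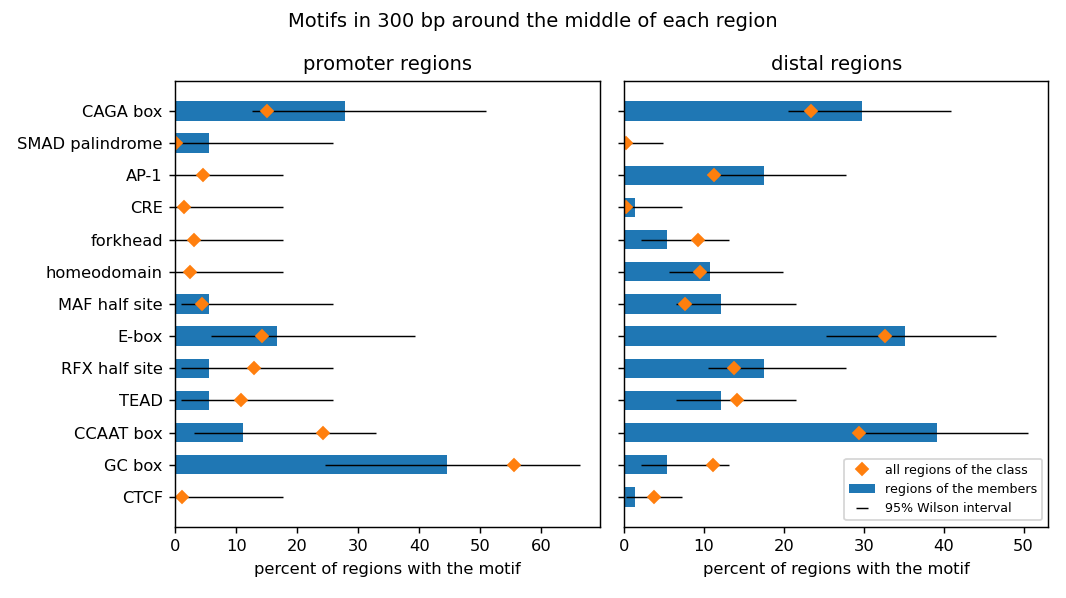
Percent of promoter regions (left, 18) and distal regions (right, 74) of the 10 genes with each motif (bars, with 95% Wilson intervals as lines) and of all regions of the same class (diamonds). CAGA boxes, AP-1 sites, CCAAT boxes and MAF sites in distal regions lie above the diamonds, with the diamonds inside the intervals.

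The rest of the pathway was looked at through 70 further genes in 6 roles. A promoter region was present for 61 of them (87.1%), with a median of 433 mean signal per kb, close to the 479 of the 10 genes, and 16 were above the median of all genes. The genes without one included the ligands BMP5, BMP7, GDF3 and INHBC and the receptors ACVRL1, ENG, AMHR2 and TDGF1.

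Among the ligands, 10 of 14 had a promoter region (median 358 mean signal per kb). The highest were GDF15, a stress-induced cytokine, with 1083 and GDF11 with 568 per kb. All 15 extracellular regulators had one, but none was above the median of all genes. In that role LTBP3, which binds latent TGF-beta, had 678 and GREM1, a BMP antagonist, had 520 mean signal per kb.

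The receptors with a promoter region (10 of 14, median 592 mean signal per kb) were led by ACVR1 with 1261 and ACVR1C, a type I receptor for activin and nodal, with 1245 per kb, and both were above TGFBR1. All 5 further SMAD genes had one, and the highest, SMAD5 with 616 and the common partner SMAD4 with 594 mean signal per kb, were below SMAD2. The intracellular regulators (11 of 11, median 548 per kb) were led by SKI, a repressor of SMAD-driven transcription, with 1608 and FKBP1A, which holds TGFBR1 inactive, with 1466 mean signal per kb.

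The known targets had the highest median of the roles, 891 mean signal per kb over the 10 of 11 with a promoter region. JUNB, an AP-1 subunit, had 2270 and CDKN2B, which encodes the cell cycle inhibitor p15, had 1656 per kb.

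**Figure D5:**
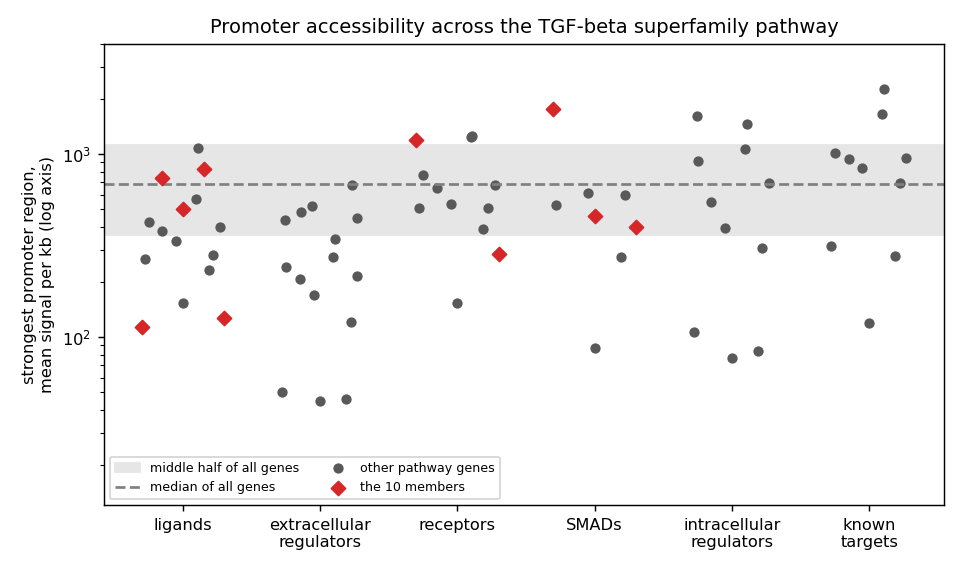
Mean signal per kb of the strongest promoter region (vertical log axis, mean over 6 libraries) of 61 further pathway genes (dots, by role) and of the 10 genes (red diamonds, in the ligand, receptor and SMAD columns). The grey band and dashed line are the quartiles and median of all genes. SMAD2 stands above the 5 further SMAD genes, TGFB1 and INHBB are below every dot of the ligands, and the known targets have the highest dot, JUNB.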

How the data were processed

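ATAC-seq libraries of EndoC-βH3 cells, 3 non-senescent and 3 senescent, grouped by their labels, had been processed by the authors. Per the labels and the methods of the study, the reads were trimmed (Trim Galore), mapped to hg38 (Bowtie2), freed of mitochondrial reads and duplicates, shifted to correct for the Tn5 offset and used for peak calling (MACS2), and the authors then compared the groups with DESeq2. The deposited signal of a region is the authors' mean over all 6 libraries of counts divided by size factors. The 5 columns with the authors' own comparison (fold change, its error, statistic, p-value and adjusted p-value) were not used. With no values per library, the precision of a level is unknown, and no test was made.

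Table starts were read as 0-based, as in BED, and printed 1-based; 0 regions lay past a chromosome end. Signal was divided by width in kb, since wider regions hold more reads. Start sites came from GENCODE 44, and motifs were matched in 300 bp of hg38 with pandas 2.3.3 and numpy 2.4.6. The assignment of regions and the motif search were tested on simulated data (150 of 150 and 1200 of 1200 answers right). Named genes were all 10, each with every promoter region and its strongest distal region per kb, and, of the further genes, the 2 highest in each role and every gene without a promoter region, except 1 gene and the strongest distal region of SMAD3, which are not reported here. Other regions named were chosen after their values were seen. The members and lists were chosen with earlier results of these data known. Alternatives were other windows, start sites, scales and a minimum signal of 50. The 4-hydroxytamoxifen dose is left out because its unit differs between the labels and the methods.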

Additional observations from a re-analysis of the deposited data

How the results depend on the processing

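No paired analysis was possible because only a mean over all libraries is given, and for the same reason no library could be left out. Every count or median within 1.5 times its reported value was read as unmoved, as was a motif share inside its Wilson interval. With a limit of 50 kb the 10 genes had 49 distal regions. With the start sites of all transcripts, non-coding ones included, they had 35 distal and 27 promoter regions, against 74 and 18 in the main setting. The start sites of all transcripts also raised the median of the strongest promoter regions to 768 mean signal per kb, above the 695 of all genes under that setting. Ordered by the mean signal of the whole region, 5 of the 10 genes kept their place, and by the sum over promoter regions 6, with SMAD2 first and TGFBR2, INHBB and TGFB1 last on each of these scales. Comparing distal with promoter regions by whole signal was added after seeing the data. In 200 bp, 17.6% of the distal regions held a CAGA box (16.2% of all distal regions), and over whole regions 50% held an E-box (45.7%) and 55.4% a CCAAT box (43.9%). Windows of 1 and 0.5 kb, the middle in the window and a minimum signal of 50 moved no count or median.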

Other observations

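Values of some further genes, chosen after they were seen, belong to no comparison above. ACVR1C had 11 distal regions, and the strongest had 3030 mean signal per kb, above every distal region of the 10 genes. PMEPA1, an inhibitor that acts on SMAD2 and SMAD3, had 1 promoter region with 76.4 mean signal per kb and no distal region in 145 kb. SMAD9 had 86.7 mean signal per kb at its promoter and 999 per kb at its strongest distal region.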
